A study of Mus musculus with 13 samples.

Results

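The cells described here are 250 colon epithelial cells with the highest combined RNA of 4 genes: Sycn, Wfdc2, Cela1 and Hoxb13. They were taken from 2845 cells that had at least 500 detected genes and little RNA of goblet cell mucus genes or of distal surface colonocyte genes, out of 4183 cells in all. The rule used the measured values themselves, and the same cells are compared below, so every difference between them and the rest is a description and none was tested. They are called Hoxb13-Sycn cells here, and the 2595 cells that passed the same limits but ranked lower are called the other kept cells.

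The study measured single-cell RNA of sorted epithelium of the whole colon from germ-free mice, which carry no microbes, and from mice given antibiotics. The labels give germ-free C57BL/6J and, for the antibiotic group, wild type C57BL/6J mice, without their age or sex or the names of the antibiotics, and control mice of the study are not analysed here. Cells were pooled by condition and sorted as EPCAM-positive and CD45-negative, with CD44-positive (proliferative) and CD44-negative (differentiated) cells in equal numbers, and run on a droplet 3' assay. The cells fall into germ-free cell sets 3 and 4 and antibiotic cell sets 1, 2 and 3, named by the number at the end of the cell names. There is 1 pool per condition, each with its own batch label, so an effect of condition and one of batch cannot be told apart, and no p-value is given.

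The colon is patterned from its proximal to its distal end, and Hox transcription factors keep a record of that position: the posterior members of each Hox cluster mark the hindgut's far end. Along the other axis, stem cells at the crypt base make transit cells that mature into absorptive colonocytes or mucus-secreting goblet cells as they move to the surface. Hoxb13 is among the most posterior Hox genes, Sycn encodes syncollin, a protein of pancreatic zymogen granules, Cela1 a chymotrypsin-like elastase and Wfdc2 a secreted protein with whey acidic protein domains. Gpx2, which the label also names as a marker but the rule did not use, encodes the epithelial glutathione peroxidase of the gut.

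The genes lie on 5 chromosomes (mm10, GENCODE vM21): Sycn on chromosome 7 (28540885 to 28542209, plus strand), Wfdc2 on chromosome 2 (164562413 to 164568510, plus strand), Cela1 on chromosome 15 (100674421 to 100687921, minus strand), Hoxb13 on chromosome 11 (96194316 to 96197447, plus strand) and Gpx2 on chromosome 12 (76792333 to 76795554, minus strand). The stretch from 150 to 5 bases before the start is shown for 3 of them, because their RNA defines or marks the cells (RefSeq, GRCm38.p6, each 5′ to 3′ on the gene's own strand). They were searched on both strands for TATAAA, the core of a TATA box, and for CAATAAA, a motif of CDX and posterior HOX factors, which do not overlap each other in these stretches. Capitals mark a match.
Sycn, chr7:28540735-28540880: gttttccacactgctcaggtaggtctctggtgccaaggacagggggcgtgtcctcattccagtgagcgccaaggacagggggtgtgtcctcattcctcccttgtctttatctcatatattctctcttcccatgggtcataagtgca
Cela1, chr15:100687925-100688070: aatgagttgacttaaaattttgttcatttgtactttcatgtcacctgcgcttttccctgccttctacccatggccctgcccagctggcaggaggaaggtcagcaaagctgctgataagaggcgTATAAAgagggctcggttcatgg
Gpx2, chr12:76795559-76795704: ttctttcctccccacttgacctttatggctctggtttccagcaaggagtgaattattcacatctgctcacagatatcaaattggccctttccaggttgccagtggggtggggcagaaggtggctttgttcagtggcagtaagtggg
TATAAA stands 27 to 22 bases before the start of Cela1, and 7.95% of 27025 promoters hold it in the same window. CAATAAA is in none of the 3 windows and in 2.53% of all of them.

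Antibiotic cell sets share cell barcodes, which bears on every result. Sets 1 and 2 have 315 barcodes in common, sets 2 and 3 have 501, and sets 1 and 3 have 48, while the germ-free sets share none with each other or with the antibiotic sets. Cells with the same barcode in 2 sets resembled each other more than cells with other barcodes did (median correlation 0.552 against 0.344 for sets 2 and 3), and the shallower copy had a median of 9.30% of the deepest cell's UMI (counts of unique molecules). Among the 192 antibiotic Hoxb13-Sycn cells, 118 had a shared barcode and 44 were shallower copies, so 206 cells remain when each barcode is counted once. With each barcode once, 486 and 498 genes were called higher and lower, against 484 and 497 with all cells, and 479 and 494 of them were the same genes.

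Of the Hoxb13-Sycn cells, 20 and 38 came from germ-free cell sets 3 and 4, and 30, 72 and 90 from antibiotic cell sets 1, 2 and 3. They were 12.7% of the kept germ-free cells (9.78% to 16.1%, exact binomial interval, which covers counting error only) and 8.04% of the kept antibiotic cells (6.98% to 9.20%), or 7.53% of the antibiotic cells with each barcode once. By set the shares were 15.0% and 11.7% in the germ-free sets, and 5.17%, 9.25% and 8.74% in the antibiotic sets, so the 2 germ-free sets lay above the 3 antibiotic sets. The intervals of germ-free sets 3 and 4 were 9.4% to 22.3% and 8.4% to 15.7%. They overlap those of antibiotic sets 2 and 3, 7.3% to 11.5% and 7.1% to 10.6%. The sort fixed the balance of CD44-positive and CD44-negative cells and can set such shares. Germ-free Hoxb13-Sycn cells were shallower, with a median of 4576 UMI per cell against 16790 in antibiotic ones. Germ-free set 3 holds 39903 UMI in these cells, so a count of 0 there allows up to 75.2 CPM (3 counts).

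The score that chose the cells, the mean of the deposited natural log values of the 4 genes, ran between 1.3307 and 3.563 with a median of 1.80. The next cell down was at 1.3305, and the 250 cells ranked after the members had a median of 0.986, so no gap separates the groups. All 4 genes were detected in 158 members, 3 in 71 and 2 in 21, while 285 of the other kept cells also had 3 or 4 of them. The members are therefore the top of a gradient of this score.

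Summed over all members, Sycn was at 2728 CPM (UMI scaled to a total of 1000000), against 101 CPM in the other kept cells. Wfdc2 was at 1298 CPM in members and 78.4 CPM in other kept cells, Cela1 at 722 CPM in members and 49.3 CPM in other kept cells, and Hoxb13 at 287 CPM in members and 18.1 CPM in other kept cells. These 4 values restate the rule. Gpx2, which the rule did not use, had 301 and 299.8 CPM in members of germ-free sets 3 and 4 and 477, 471 and 408 CPM in those of antibiotic sets 1, 2 and 3, against 180, 104, 55.6, 46.0 and 56.9 CPM in the other kept cells of the same sets. Every set of members was thus above every set of other kept cells, 7.60-fold higher in all (7.10 to 8.13, counting error only).

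Sycn was not particular to these cells. In the 524 cells that the rule set aside as distal colonocytes it was at 3390 CPM, and Hoxb13 was at 216 CPM there, both of the order seen in the members, while Wfdc2 and Cela1 were at 561 and 304 CPM and Gpx2 at 63.1 CPM.

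**Figure D1:**
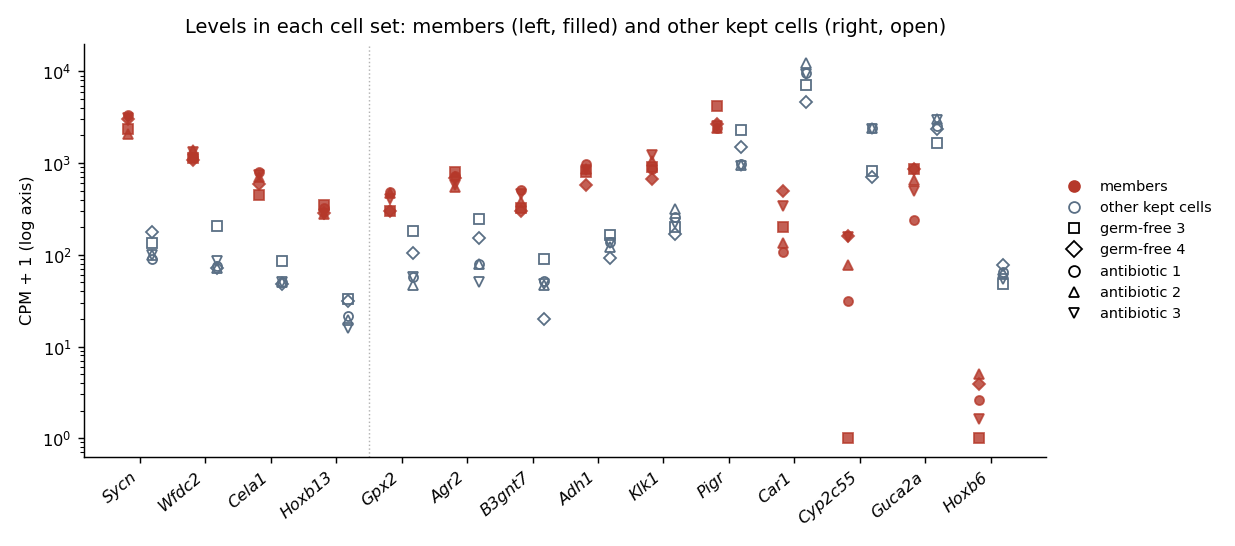
Level in CPM + 1 on a log axis of the 4 genes of the rule (left of the dotted line) and of 10 further genes, by cell set, in Hoxb13-Sycn cells (filled, left) and the other kept cells (open, right). Gpx2, Agr2, B3gnt7, Adh1, Klk1 and Pigr lie higher in the members of each set than in its other kept cells, and Car1, Cyp2c55, Guca2a and Hoxb6 lie lower; a point at 1 is a count of 0.

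Beyond the rule's genes, the members carried more RNA of Agr2, B3gnt7, Gpx2, Adh1 and 5 posterior Hox genes and much less of proximal and surface colonocyte genes. A gene was called when the log2 ratio of CPM + 1 was at least 1 in size and had the same direction in all 5 cell sets. Among 6685 ranked genes (at least 50 UMI, and 20 CPM in the higher group), 484 were higher (7.24%) and 497 lower (7.43%) in the members. The rule picked cells from this very contrast, so these counts show only how far the chosen cells differ. The split depends on the scaling: with totals that leave out mitochondrial genes 399 were higher and 621 lower, and with median-of-ratios scaling, which shifts all log2 ratios by 0.20, 294 and 739.

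Several of the strongest genes make, modify or carry secreted and surface proteins, but the list of deep crypt secretory and goblet genes did not follow. Of its 17 measured genes 1 was higher (Agr2) and 2 lower (Galnt12 and Guca2a), with a median log2 ratio of 0.13 against 0.06 over all ranked genes. The list summed to 1834 CPM in members and 3168 CPM in other kept cells. Guca2a, which is on the colonocyte list too, was at 553.5 CPM in members and 2836 CPM in other kept cells. The order of the 2 sums is therefore set by this 1 gene. Ttr, which encodes the thyroid hormone and retinol carrier transthyretin, was at 130 CPM in members and 10.3 CPM in other kept cells, 12.6-fold higher (10.9 to 14.6). Agr2, a disulfide isomerase needed for mucin production, had 802, 679, 715, 552 and 570 CPM in members of germ-free sets 3 and 4 and antibiotic sets 1, 2 and 3, against 243, 150, 79.3, 78.7 and 49.0 CPM in their other kept cells. No set of other kept cells reached the lowest set of members, and the ratio over all cells was 8.31-fold (7.83 to 8.82). Even so, goblet cells, which the rule removed, had 3324 CPM of Agr2. B3gnt7, a glycosyltransferase, was at 420 CPM in members and 46.3 CPM in other kept cells, 9.07-fold higher. Klk1, a secreted serine protease, was 4.21-fold higher, at 1059 CPM in members and 252 CPM in other kept cells, and distal colonocytes had as much (1029 CPM).

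Some genes of detoxification and of crypt ion transport were higher. Adh1, an alcohol dehydrogenase that also oxidises retinol, was at 846 CPM in members and 128 CPM in other kept cells, 6.61-fold higher, and members lay above other kept cells in each set. Gpx1, Gpx2, Prdx2 and Gstm1 were higher among 23 measured glutathione and antioxidant genes, and Gclc and Nqo1 lower, with a list median of 0.35 on the log2 scale against 0.06 over all ranked genes. Kcne3, a subunit of the basolateral potassium channel that drives chloride secretion, was 5.92-fold higher, at 162 CPM in members and 27.3 CPM in other kept cells. Kcnn4, another potassium channel of secreting epithelium, and Fxyd3 were also higher among 15 genes of crypt ion transport, 1 was lower (Slc4a2). The median of that list was 0.03, under that of all ranked genes, and its sum was 2765 CPM in members and 2845 CPM in other kept cells. The remaining 10 of the 15 strongest were Ctse, Ly6g6e, Hopx, Rdx, Casp14, Slc50a1, Ifitm2, Stmn1, 2410006H16Rik and Gstm2, between 6.53-fold and 13.8-fold higher.

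A few genes of protein secretion and mucosal defence were called. Pdia6, Sec61b and Ssr4 were higher among 18 genes of the unfolded protein response and endoplasmic reticulum, and Dnajb9 was lower, with a list median of 0.49. Creb3l1, a transcription factor of secretory cells, and Sox9 were higher among 11 genes of Notch signalling and secretory fate. Pigr, the receptor that carries IgA to the lumen, had 4185, 2695, 2403, 2402 and 2520 CPM in members of the sets in the same order, against 2268, 1513, 968, 941 and 929 CPM in their other kept cells. It was 2.52-fold higher (2.47 to 2.58), with Ccl28 and S100a11 also higher among 15 antimicrobial and defence genes. Reg3b was the 1 lower, 9.09-fold, at 26.5 CPM in members and 241 CPM in other kept cells, and the list median was -0.59. Among 15 genes of surface ion and short-chain fatty acid transport, Slc5a8 and Car2 were higher and 8 lower.

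Some genes with high sums rest on a single cell. Mptx1, a mucosal pentraxin, averaged 2310 CPM in members, but 1 cell of antibiotic set 3 held 88.7% of the members' UMI of it. The same holds in part for Spink4, Reg4 and Ccl6, of which 1 cell held 62.5%, 67.7% and 71.7%. None of these 4 was called, because their sets disagree. Of the 484 genes called higher, none had over 50% of its UMI in 1 cell.

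The largest deficits were in genes of the proximal colon and of mature absorptive cells. Car1, a carbonic anhydrase of mature colonocytes, had 201, 494, 105, 134 and 340 CPM in members of the sets in the same order, against 7122, 4612, 9672, 12400 and 9378 CPM in their other kept cells, 42.6-fold lower over all (40.1 to 45.3). The bile acid carrier Slc10a2 was at 2.27 CPM in members and 192 CPM in other kept cells, 84.6-fold lower, and Slc51a, a subunit of the basolateral bile acid exporter, at 4.99 CPM in members and 142 CPM in other kept cells, 28.4-fold lower. Cyp2c55, an epoxygenase of the proximal colon, was 21.6-fold lower, at 105 CPM in members and 2276 CPM in other kept cells. Osr2, a zinc finger transcription factor, was at 0.680 CPM in members and 57.5 CPM in other kept cells, 84.6-fold lower (28.9 to 411), with 3 UMI in all members. Abca12, Cyp4b1, Prkg2, Grin3a, Defb37, Pdk4, Pstpip2, Mgll, Ces1g and Chn2 complete the 15 lowest, between 22.8-fold and 109-fold lower. The highest of these, of Abca12, rests on 3 UMI in members and has an interval of 37.2 to 528.

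Grouped by list, 10 of 15 proximal colon genes were lower and 2 higher (Adh1 and Hao2), with a median log2 ratio of -2.82. None of 20 colonocyte genes was higher and 12 were lower, among them Car4, Slc26a3, Krt20 and Guca2a, with a median of -1.67. Low colonocyte RNA was not particular to the members. In the clusters described further on, the sums of this list ran from 3028 CPM (cluster 14) to 58150 CPM (cluster 5), with 5910 CPM in cluster 4. Clusters 2, 11 and 14, which held 9, 13 and 1 members, were at 3380, 3796 and 3028 CPM. Among 19 genes of fatty acid oxidation and PPAR signalling 6 were lower, Pdk4, a kinase that holds back glucose oxidation, among them (5.44 CPM in members and 139.7 CPM in other kept cells). Of 15 interferon-response genes 3 were lower (Irf7, Oasl2 and Ddx60) and none higher. These shares stand against 7.24% and 7.43% of all ranked genes.

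Several posterior Hox genes were higher in members, but the rule itself used Hoxb13, another posterior Hox gene. The choice of cells can favour this difference. Of 7 posterior genes measured, 5 were higher (Hoxa9, Hoxa10, Hoxa13, Hoxd11 and Hoxd13) and none was lower, with a median of 1.56. This was not particular to the members. The list summed to 227 CPM in members, 107 CPM in other kept cells and 206 CPM in the 250 cells ranked just after. In the clusters described further on, it ran from 27.6 CPM (cluster 0) to 265 CPM (cluster 2, 9 members among 175 cells). Cluster 4, which held 102 members, was at 221 CPM, and cluster 14, with 1 member among 140 cells, at 196 CPM. Hoxd13 had 25.1, 49.96, 31.9, 26.3 and 41.7 CPM in members, against 15.9, 5.09, 6.95, 8.09 and 6.55 CPM in other kept cells of the same sets, 4.91-fold higher over all (3.94 to 6.11). Hoxd11 was 6.83-fold higher, at 21.1 CPM in members and 3.09 CPM in other kept cells. Hoxb9 was at 59.6 CPM in members and 61.3 CPM in other kept cells, and the interval of that ratio runs from 0.851 to 1.11.

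Hoxb6, from the middle of the B cluster, went the other way, and its neighbours were near 0 in members. Hoxb6 was at 2.27 CPM (10 UMI) in members and at 59.5 CPM in other kept cells, 26.3-fold lower (14.3 to 54.9). Hoxb3, Hoxb4, Hoxb5 and Hoxb7 were at 0.227 to 1.13 CPM in members and 12.9 to 19.3 CPM in other kept cells. Hoxb8 had no UMI in any member, which allows up to 0.680 CPM, and 6.76 CPM in other kept cells. These 5 were too low for the ranking. Genes of the A cluster with like numbers did not follow: Hoxa3, Hoxa5 and Hoxa7 had log2 ratios of 0.59, 0.94 and 1.38, none of them called. Among transcription factors of the gut, Cdx2 was 2.65-fold lower (28.6 CPM in members and 75.7 CPM in other kept cells) and Isx, an intestine-specific homeobox factor, 14.1-fold lower (6.80 CPM in members and 95.7 CPM in other kept cells). Hox clusters hold antisense genes, and the sources used here do not say whether counting used strand. Of 9 measured genes listed for the distal colon, 1 was higher (Capn13) and 2 lower (Sprr2a2 and Sprr2a3, near-identical copies), with a median of -0.25.

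Set against distal colonocytes, the Hox pattern was nearly level. None of the 7 posterior genes was called in either direction (median 0.39), and the median over 10 anterior and middle genes was -0.04, with Hoxa7 at 1.02 the only one called. Hoxb6 was at 2.73 CPM and Cdx2 at 29.8 CPM in distal colonocytes, close to 2.27 and 28.6 CPM in the members. In these Hox genes the members thus resembled the cells set aside as distal. None of them entered the rule, but Hoxb13, another posterior Hox gene, did. The choice of cells can therefore favour this likeness, which is no separate support for position.

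**Figure D2:**
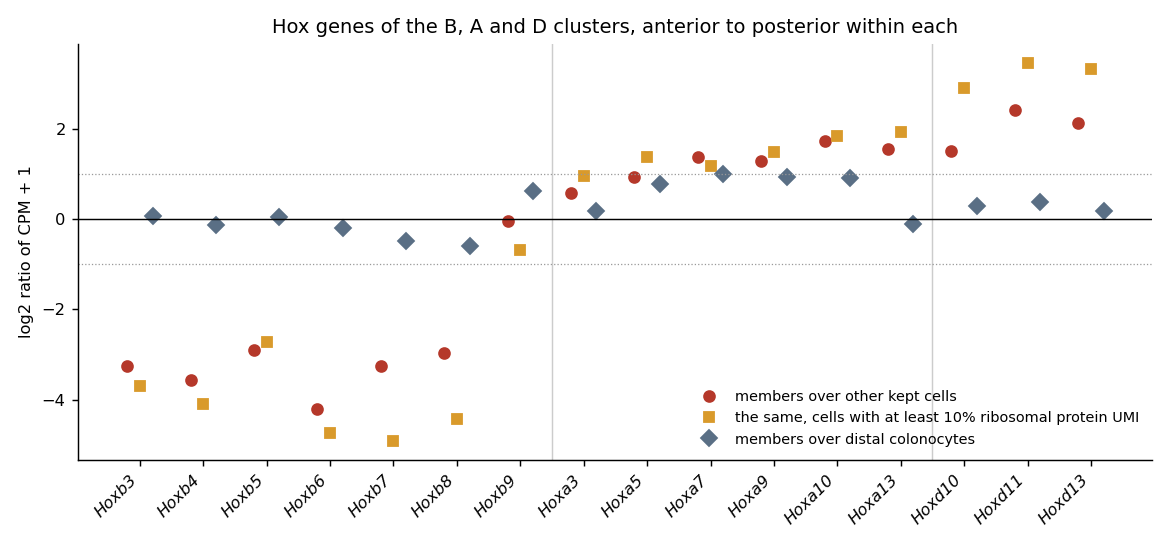
Log2 ratio of CPM + 1 for 16 Hox genes of the B, A and D clusters: members over other kept cells (circles), the same among cells with at least 10% ribosomal protein UMI (squares), and members over distal colonocytes (diamonds); dotted lines mark a 2-fold ratio. Hoxb3, Hoxb4, Hoxb5, Hoxb6, Hoxb7 and Hoxb8 lie at -2.91 or lower against other kept cells, Hoxa9, Hoxa10, Hoxa13, Hoxd11 and Hoxd13 above 1, and no gene but Hoxa7 passes 1 in either direction against distal colonocytes.

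Some crypt and cell cycle genes were higher in the members than in distal colonocytes, though the cycle RNA was uneven among members. Of 6553 ranked genes 480 were higher (7.32%) and 332 lower (5.07%). Of 17 stem cell and Wnt genes 7 were higher (Axin2, Sox9, Znrf3, Lrig1, Ephb2, Rgmb and Cdk6) and 1 lower (Prom1), with a median of 1.57. Among 20 S phase genes 5 were higher, with a median of 1.94, and among 20 genes of G2 and mitosis 4, with a median of 2.53, including Mki67 at 68.7 CPM in members and 7.84 CPM in distal colonocytes. Slc12a2, the chloride uptake carrier of crypt cells, was at 154 CPM in members and 15.0 CPM in distal colonocytes and Cldn2, a pore-forming crypt claudin, at 73.4 CPM in members and 5.12 CPM in distal colonocytes. Colonocyte genes were lower in 13 of 20. The rule set distal colonocytes apart by genes of surface colonocytes, so part of the differences from them restates the rule. Over the G2 and mitosis list all members summed to 768 CPM and distal colonocytes to 115 CPM, but the 102 members in the largest of the clusters described further on, with each barcode once, were at 291 CPM.

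Goblet cells, which the rule set aside, differed most in their own genes. Of 6964 ranked genes 548 were higher in members (7.87%) and 571 lower (8.2%). Of 17 measured deep crypt secretory and goblet genes 14 were lower, with a median of -4.41, and part of this restates the rule. Posterior Hox genes were higher in 4 of 7 (Hoxa10, Hoxa13, Hoxd11 and Hoxd13), with a median of 1.08, and glutathione genes in 5 of 23.

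Against the other kept cells few genes of the same lists were called. Sox9 was the only stem cell and Wnt gene called higher of 17, at 96.8 CPM in members and 26.7 CPM in other kept cells, and Prom1 was 10.0-fold lower. Lgr5, the marker of crypt base stem cells, was at 6.12 CPM in members and 11.6 CPM in other kept cells, a level at which 27 UMI stand for all members. Tyms alone of 20 S phase genes and Hmgb2 alone of 20 genes of G2 and mitosis were called, 3.73-fold and 2.65-fold higher, while the list medians were 0.94 and 0.83. Mki67 was at 68.7 CPM in members and 71.6 CPM in other kept cells and Top2a at 100.2 CPM in members and 56.5 CPM in other kept cells, uncalled. The G2 and mitosis sums of members lay under those of other kept cells in both germ-free sets and above them in the 3 antibiotic sets. The G2 and mitosis genes summed to 526 and 429 CPM in members of germ-free sets 3 and 4, against 904 and 704 CPM in their other kept cells, and to 749.6, 946 and 662 CPM in members of antibiotic sets 1, 2 and 3, against 489.5, 407 and 287.5 CPM in theirs. The S phase sums were 276 and 341 CPM in germ-free members, against 375 and 292 CPM in other kept cells, and 314, 485 and 350.2 CPM in antibiotic members, against 205, 179 and 186 CPM in other kept cells. The difference between conditions was not tested, and the label's word progenitor is not used here.

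Ribosomal protein RNA moved with membership. Cytosolic ribosomal protein genes took 16.4% of the members' UMI and 3.95% of the other kept cells', and by set 13.2%, 13.2%, 16.1%, 17.7% and 15.8% in members, against 7.76%, 6.49%, 3.53%, 4.24% and 3.57% in other kept cells. All of the 83 measured were higher by ratio, at least 0.89 on the log2 scale. Members made up 1.31% of kept cells with under 3% ribosomal protein UMI and 76.0% of those with at least 20%. Mitochondrial genes took 7.56% in members and 13.9% in other kept cells, and Gm42418, AY036118 and Lars2 a median of 3.57% per cell in members and 8.39% in other kept cells. Median UMI per cell was 10270 in members and 7083 in other kept cells. The part of these differences in the results was not tested.

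Restricting both groups to cells with at least 10% ribosomal protein UMI left 155 members (median 17310 UMI) and 166 other kept cells (median 7392 UMI). Hox, proximal colon and colonocyte genes differed there too, while stem cell, cycle and interferon-response genes came close to level. Of 6503 ranked genes 301 were higher (4.63%) and 303 lower (4.66%), with 3 cell sets large enough to count, and 147 and 217 of them were among those called with all cells. Posterior Hox genes were again higher in 5 of 7, the same 5, with a median of 1.93. Hoxb3, Hoxb6, Hoxb7 and Hoxb8 were lower, proximal colon genes were lower in 9 of 15 (median -2.38) and colonocyte genes in 8 of 20 (median -1.20). Fatty acid oxidation and PPAR genes were lower in 8 of 19.

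B3gnt7 and Casp14 stood further apart in that comparison, with log2 ratios of 4.05 and 4.26 against 3.15 and 2.78 with all cells, and Creb3l1, a transcription factor of secretory cells, was at 1.86 against 1.69 with all cells. Other groups came close to level. Stem cell and Wnt genes had a median of -0.01, S phase genes 0.22, and G2 and mitosis genes 0.28, with none higher. Among the ribosome-rich cells the log2 ratio of Ifitm2 was 0.46 and that of Car2 0.15, against 2.70 and 1.52 with all cells. That of Stmn1 was 1.36, still over the 2-fold limit, against 2.69 with all cells. None of these genes was called any longer. Pigr was not called there either, at 2471 CPM in members and 1879 CPM in other kept cells. Of the unfolded protein response and endoplasmic reticulum list none was higher and 1 lower, with a median of 0.12, and of the antimicrobial list 1 was higher and 3 lower. Glutathione genes had a median of -0.14 with Gpx2 still called at 1.08, and interferon-response genes one of -0.06.

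**Figure D3:**
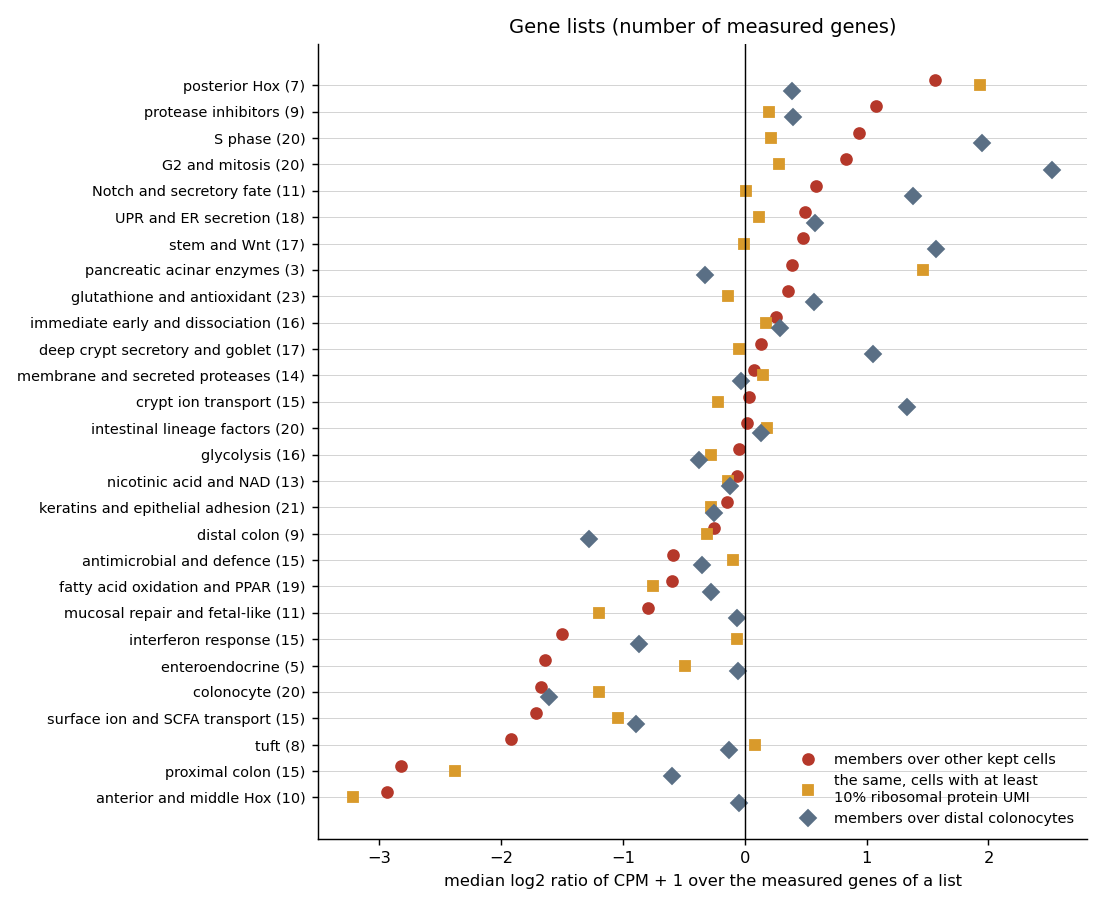
Median log2 ratio of CPM + 1 over the measured genes of each list (their number in brackets): members over other kept cells (circles), the same among cells with at least 10% ribosomal protein UMI (squares), and members over distal colonocytes (diamonds). Posterior Hox and proximal colon medians (1.56 and -2.82) are at 1.93 and -2.38 in the ribosome-rich cells, whereas S phase and interferon-response medians (0.94 and -1.50) come to 0.22 and -0.06.

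Members resembled each other in genes outside the rule. In a space of 30 principal components built without the rule's genes, 63.0% of the 15 nearest neighbours of a member were members, against 17.1% for the 250 cells ranked just after them and 3.52% for all other kept cells, where 8.79% of all kept cells are members. With each barcode once and ribosomal protein and mitochondrial genes left out as well, the shares were 60.0%, 18% and 3.89%. The genes of the rule vary together with other genes, so this describes the cells and is no test of a type.

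**Figure D4:**
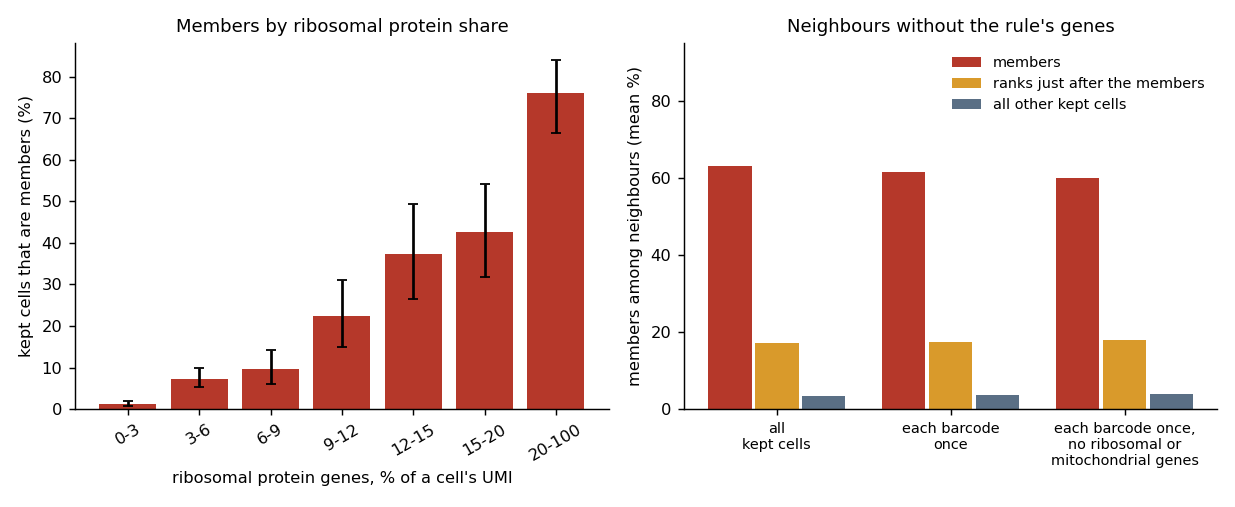
Left: percentage of kept cells that are members, by the share of ribosomal protein genes in a cell's UMI, with exact binomial intervals; it is 1.31% under 3% and 76.0% at 20% or more. Right: mean percentage of members among the 15 nearest neighbours of members, of the 250 cells ranked next, and of all other kept cells, in 3 versions of the expression space; members are at 63.0%, 61.4% and 60.0%.

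The members were spread over several clusters, which differed in depth as well. Among 18 clusters of the cells with each barcode once, cluster 4 held 102 of 206 members, which made up 84.3% of its 121 cells. Its members had a median of 29460 UMI, 19.0% ribosomal protein UMI and 6.10% mitochondrial UMI. Members of clusters 3, 15 and 17 were shallower, with medians of 9075, 2599 and 4425 UMI. Their mitochondrial shares were 14.7%, 13.1% and 16.6%. The part of depth and quality in the differences between clusters was not tested. Cluster 3 held 24 members, all from antibiotic mice, and only 3 of all its 156 cells were germ-free. Its members had 3.10% ribosomal protein UMI, 80.6 CPM of Gpx2 against 507 CPM in those of cluster 4, and no UMI of Top2a. Cluster 15 held 15 members, with 5675 CPM of Sycn, 1989 CPM of Car1 and 2798 CPM of Guca2a, a peptide hormone of surface cells, against 2730, 106 and 205 CPM in those of cluster 4. Cluster 17 held 23 members, all germ-free, as were 94 of all its 95 cells. Its members had 233 CPM of Gpx2. Over the G2 and mitosis list they had 669 CPM, against 291 CPM in members of cluster 4 and 123 CPM in those of cluster 3. Cluster 11, whose cells summed to 5216 CPM over that list, held 13 members, 1 germ-free and 12 antibiotic. Of all its 146 cells, 28 were germ-free. The cells ranked first also differed from those ranked last among the members. Ribosomal protein genes took 19.7% of UMI in the top 50 and 11.1% in the last 100. Car1 was at 109 CPM in the top 50 and 512 CPM in the last 100. Hoxd13 was at 57.8 CPM in the top 50, 28.6 CPM at ranks 51 to 150 and 21.6 CPM in the last 100. It did not fall steadily with rank, as it was at 45.5 CPM at ranks 251 to 350, just outside the members.

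Markers of other cell types were near 0 in the members. Over all 250 cells, 13 enteroendocrine, 12 tuft, 14 immune and 14 stromal genes summed to 7.71, 4.76, 1.81 and 4.99 CPM in members, against 29.7, 39.1, 2.38 and 4.72 CPM in the other kept cells. Over the 5 sets, the sums lay between 0 and 17.6, 0 and 7.42, 0 and 2.94, and 0 and 25.1 CPM in members, against 21.2 and 63.0, 10.6 and 66.8, 0 and 2.95, and 0 and 6.44 CPM in the other kept cells. Of these genes 6, 6, 10 and 8 had no UMI in any member. Sycn and Cela1 are known from the exocrine pancreas, so 20 other acinar enzymes and zymogen granule genes were looked at. Of these 15 had no UMI in any member, and the 3 that were measured were Spink1, Clps and Pnliprp2. Spink1, a trypsin inhibitor, was at 97.5 CPM in members and 74.1 CPM in other kept cells with 58.6% of the members' UMI in 1 cell, and at 1682 CPM in goblet cells. Scrublet marked 10 of 4183 cells as doublets and none of the members, a share of 0.239% that is too low for the caller to be relied on.

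Germ-free and antibiotic members were compared to see how cells chosen by 1 rule differ between the germ-free and the antibiotic mice. Germ-free members had less RNA of Jun, Jund, Gapdh, Eno1 and some cell cycle genes, and more of several noncoding RNAs and of Reg3b and Reg1. A gene was called when it differed at least 2-fold and both germ-free sets lay on one side of all 3 antibiotic sets. Of 6726 ranked genes 138 were higher (2.05%) and 265 lower (3.94%). Of the 265, 173 had no UMI in germ-free set 3, which its depth allows for levels up to 75.2 CPM, and 26 had at least 3. With median-of-ratios scaling, which shifts all log2 ratios by 0.17, 82 were higher and 435 lower, and with totals without mitochondrial genes 223 and 223. Single sets weigh on these counts: 1062 and 1566 genes were called without germ-free set 4, 216 and 354 without germ-free set 3, and 90 and 261 without antibiotic set 2.

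Some of the genes called differed likewise in the other kept cells. Mitochondrial genes took 13.5% of the germ-free and 7.001% of the antibiotic members' UMI, and 20.8% of the germ-free and 13.4% of the antibiotic other kept cells' UMI. Among the genes called, 30 of the 138 and 44 of the 265 also differed at least 2-fold in the same direction among the other kept cells. The share of all ranked genes that differ so there was not counted. These numbers therefore do not show whether the called genes do so more often than others. The noncoding RNAs Gm20528 and Pard3bos1 were 10.6-fold (6.89 to 16.3) and 8.57-fold higher in germ-free members, and among other kept cells Gm20528 was at 294 CPM in germ-free and 26.2 CPM in antibiotic mice, and Pard3bos1 at 95.4 CPM in germ-free and 5.01 CPM in antibiotic mice. The other strongest higher genes were Tsix, Gm20536, Gm36975, Gm15563, Gm35188, Gm20663, Gm47167 and Gm48678, with log2 ratios between 2.43 and 2.97, and among other kept cells between 2.41 and 3.46. Most of these are annotated as antisense RNAs, and without strand their reads cannot be told apart from those of the gene they overlap. The strongest lower genes, Hist2h2aa1, Krt36, Dynlt1f, Gstp1, Gm11867, Sprr1a, Clns1a, Nusap1, Gstp2 and Hist1h3e, have 0 to 2 UMI in all germ-free members, and the first 3 have none. Gstp1, a glutathione transferase with a near-identical neighbour in Gstp2, was at 5.26 CPM (2 UMI) in germ-free and 113 CPM in antibiotic members, and among other kept cells at 15.3 CPM in germ-free and 110 CPM in antibiotic mice.

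Genes with counts in both germ-free sets give firmer values, though 3 UMI stand for 75.2 CPM in germ-free set 3. The values of that set below therefore rest on few UMI. Jun, a subunit of the AP-1 transcription factor, was at 250.6 and 279 CPM in germ-free sets 3 and 4, against 853, 722 and 818 CPM in antibiotic sets 1, 2 and 3, 2.83-fold lower (2.33 to 3.47). Jund was at 175 and 232 CPM in the germ-free sets, against 711, 711 and 675 CPM in the antibiotic sets. Both germ-free sets lay well under the antibiotic sets for each gene, and 4 of 16 immediate early and dissociation genes were lower (also Hspa1a and Hspa1b, which are near-identical copies). Gapdh was at 150 and 326 CPM in the germ-free sets and 627, 926 and 838 CPM in the antibiotic sets, though its many processed pseudogenes could take some of its reads. Eno1 was the other gene lower of 15 measured in glycolysis, whose median log2 ratio was -0.26. Among other kept cells, Jun was at 547 CPM in germ-free and 877 CPM in antibiotic mice, and Gapdh at 234 CPM in germ-free and 614 CPM in antibiotic mice.

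Hopx, Stmn1, Ifitm2 and Gstm2, which were among the 15 genes highest in members over other kept cells, were lower in germ-free than in antibiotic members. Stmn1, a microtubule regulator of dividing cells, was at 100.2 and 79.4 CPM in the germ-free sets and 145, 252 and 166 CPM in the antibiotic sets, while among other kept cells it was at 59.7 CPM in germ-free and 26.4 CPM in antibiotic mice. Ifitm2 was at 60.5 CPM in germ-free and 126 CPM in antibiotic members, and among other kept cells at 48.3 CPM in germ-free and 15.6 CPM in antibiotic mice. Whether the 2 contrasts differ was not tested. Hes1, a Notch target, was at 184 CPM in germ-free and 375 CPM in antibiotic members, 2.04-fold lower (1.60 to 2.63), and among other kept cells at 113 CPM in germ-free and 130 CPM in antibiotic mice.

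Cell cycle genes were lower in 5 of 13 measured genes of G2 and mitosis: Top2a, Cdk1, Birc5, Ube2c and Nusap1. Top2a was at 0 and 23.5 CPM in the germ-free sets and 51.04, 139.9 and 94.97 CPM in the antibiotic sets, and rests on 8 UMI in germ-free members. Mki67 was at 63.1 CPM in germ-free and 69.2 CPM in antibiotic members. Members of the 2 conditions were spread unequally over the clusters, though they shared the largest, cluster 4, where 21 of 102 members were germ-free. The cycling cluster 11 held 1 germ-free and 12 antibiotic members, and 28 of all its 146 cells were germ-free. Cluster 17 held 23 of the 58 germ-free members and no antibiotic one, and 94 of all its 95 cells were germ-free. The part of this in the result was not tested. Reg3b, an antimicrobial lectin, was at 150 and 94.1 CPM in the germ-free sets, against 16.0, 11.4 and 29.6 CPM in the antibiotic sets, 5.10-fold higher (3.37 to 7.60), whereas other kept cells had 237 CPM in germ-free and 241 CPM in antibiotic mice. Reg1 was 4.99-fold and Fabp1, the liver-type fatty acid binding protein, 4.06-fold higher in germ-free members, and among other kept cells Reg1 was at 195 CPM in germ-free and 31.3 CPM in antibiotic mice, and Fabp1 at 249 CPM in germ-free and 59.3 CPM in antibiotic mice.

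None of 6 measured posterior Hox genes was called between the conditions, and their median log2 ratio was 0.48 against 0.10 over all ranked genes. Hoxb13 was at 292 CPM in germ-free and 286 CPM in antibiotic members, Sycn at 2965 CPM in germ-free and 2705 CPM in antibiotic members, Wfdc2 at 1076 CPM in germ-free and 1319 CPM in antibiotic members, and Cela1 at 579 CPM in germ-free and 736 CPM in antibiotic members, levels that the choice of cells holds close. Colonocyte genes were called in none of 18 and stem cell and Wnt genes in 1 of 13 (Cdca7, lower).

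**Figure D5:**
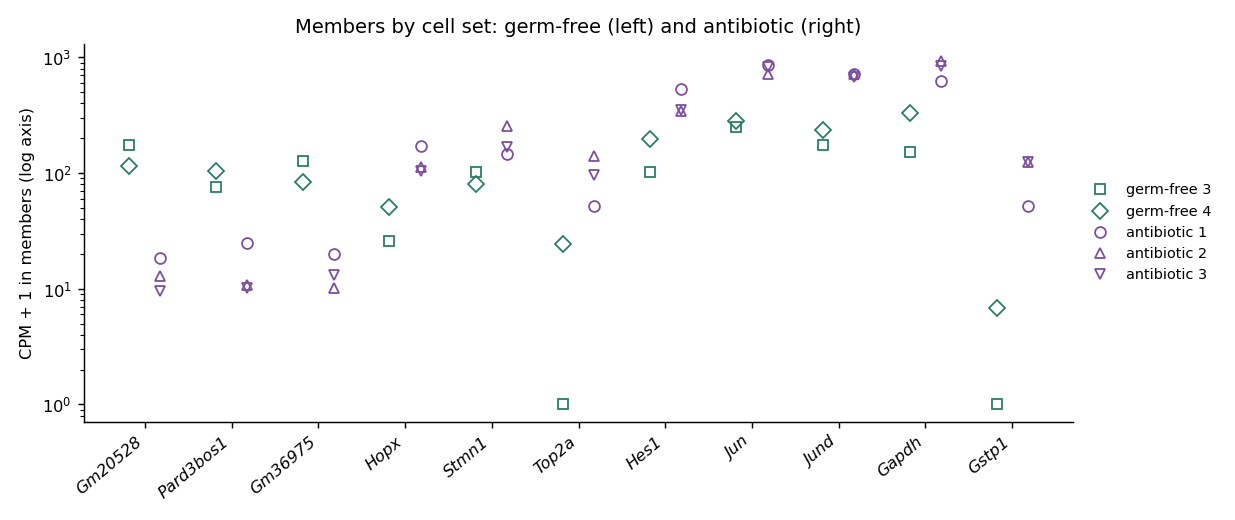
Level in CPM + 1 on a log axis in Hoxb13-Sycn cells of germ-free sets 3 and 4 (left) and antibiotic sets 1, 2 and 3 (right), for 11 genes called between the conditions. Gm20528, Pard3bos1 and Gm36975 lie higher in both germ-free sets and the other genes lower; Top2a and Gstp1 had no UMI in germ-free set 3, where a count of 0 allows up to 75.2 CPM.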

How the data were processed

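Sorted colon epithelial cells were measured by droplet 3' single-cell RNA sequencing. The authors deposited natural log values for 32285 genes and 4183 cells, and the exponential of each minus 1 sums to 10000 per cell. Dividing by a cell's smallest nonzero value gave whole numbers within 0.01 for 100% of 9481333 nonzero values, taken as UMI. The submitters' processing notes list Cell Ranger 7.0.0, kallisto, bustools and mm10 with no role for each. The authors' filters on cells, not given in the sources used here, may have removed cells. Of 13 libraries, 8 barcode libraries were not used here, 5 hold cDNA, and control mice were not analysed here. The numbers in germ-free cell names are not the labels' library numbers, so cells were assigned to conditions only. The number of columns left out was 0.

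The rule's limits were under 30 CP10K (counts per 10000 UMI) of Muc2, Fcgbp and Zg16 and under 5 CP10K of Slc37a2, Atp12a, Tgm3 and Fxyd4. Distal colonocytes (524 cells) and goblet cells (249) are those over these limits, and 565 cells had under 500 genes. UMI were summed per group and cell set and scaled to CPM. Ratios have conditional binomial, levels exact Poisson and shares exact Clopper-Pearson intervals at the 95% level, which cover counting error only. Comparisons of members with others count cell sets with at least 20 members, those between conditions sets with at least 10. A list gene counts as measured with at least 50 UMI over the groups compared. The ranking leaves out the rule's genes, Xist and genes of ribosomal proteins, mitochondria and the Y chromosome.

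The members and the gene lists were chosen with earlier results of these data known. Named genes are the 15 strongest in each direction, the 10 strongest between conditions, the rule's genes, every measured posterior Hox gene and up to 4 of the highest genes of each list. The ribosome-rich comparison and the barcode alternatives were added after seeing the data. Results of some genes are not reported here. Others were named after their values were seen, among them Hoxb3, Hoxb4, Hoxb5, Hoxb7, Hoxb8, Cdx2, Isx, Lgr5, Prom1, Axin2, Slc12a2, Cldn2, Kcnn4, Gstm1, Krt20, Mptx1, Ccl6, Reg3b, Reg1, Fabp1, Eno1 and Cdk1. Neighbours and Leiden clusters (resolution 1.0, 2000 variable genes) were computed with Scanpy 1.11.5. The contrast was checked on simulated counts with known changes. Python 3.11.15, NumPy 2.4.6, SciPy 1.17.1 and pandas 2.3.3 were used.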

Additional observations from a re-analysis of the deposited data

Results flagged for a closer look

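For 5 of 145 named genes, members lay above the other kept cells in all sets of one condition and below them in all sets of the other. The share of all ranked genes with this pattern was not counted, so the 5 cannot be read as more than any genes would give. The difference between the conditions was not tested. The mean log2 ratio of members over other kept cells was -0.80 in germ-free and 0.32 in antibiotic sets for Ephb2, a receptor that places cells along the crypt. For Cenpf, a kinetochore protein, it was -1.01 in germ-free and 0.41 in antibiotic sets. The membrane mucin Muc13 had 0.48 in germ-free and -0.24 in antibiotic sets, the adhesion molecule Epcam -0.061 and 0.23, and Acadl, a fatty acid dehydrogenase, 0.20 and -0.28. Ephb2 and Cenpf had 25.1 CPM each in members of germ-free set 3, which is 1 UMI. Epcam was nearly level in germ-free sets 3 and 4, with log2 ratios of -0.066 and -0.056.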

How the results depend on the processing

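The 206 cells with each barcode once gave 131 and 266 genes between conditions, against 138 and 265. The list and gene results rest on 1 pool per condition and, in germ-free set 3, on shallow cells. The cause of the changes below was not tested. No paired analysis was possible because cells carry no replicate numbers that pair the conditions and no test was run. With the 150 highest cells, members were 7.002% of germ-free and 4.94% of antibiotic kept cells and 806 genes were higher than in other kept cells. Between conditions 216 were then higher and 400 lower. With the 400 highest the shares were 18.82% and 13.15%, with at least 1000 genes per cell the antibiotic share was 9.915%, and without any shared barcode it was 5.70%, with 71 genes higher in germ-free members. Between conditions, per-cell means gave 329 and 539, no filter on low genes 326 and 1541, a pseudocount of 10 CPM 56 and 142, and thinning to 1000 UMI 12 and 38 of 561 ranked genes, of which 0 and 15 were among the 138 and 265. There Nusap1 and Hist1h3e turned to 0.70. Median-of-ratios scaling gave 294 genes higher in members, and 82 and 435 between conditions, and totals without mitochondrial genes 223 higher. In cells with at least 10% ribosomal protein UMI, 301 and 303 genes were called in members, 302 and 298 with each barcode once, and 398 higher and 280 lower with totals without ribosomal protein genes. Between conditions 222 and 215 were higher in the first 2 of these, and 494 lower in the last. There the tuft list median turned to 0.088, 0.088 and 0.12, and the interferon one to 0.012 with each barcode once and 0.016 in the last. The acinar list median between conditions turned to 0.26 with a score without Hoxb13 and lay between -1.99 and 0.059 with each set left out in turn. Leaving out each cell set gave 469 to 719 genes higher and 493 to 603 lower in members, and 90 to 1062 higher and 261 to 1566 lower in germ-free members, the highest without germ-free set 4.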
